A study of Mus musculus with 4 samples.

Results

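The data described here are the signals of 10 chemokine ligand genes in livers that lack Cnot3 in hepatocytes, measured beside livers that keep it. The genes were 4 ligands of the CC class (Ccl2, Ccl5, Ccl6 and Ccl9) and 6 of the CXC class (Cxcl1, Cxcl9, Cxcl10, Cxcl12, Cxcl14 and Cxcl16). They were taken as every probe set that names 1 of these symbols and no other gene, which gave 19 probe sets, and all 10 genes were found among the 18193 genes named alone on the array. Of these genes, 3 had 1 probe set, 5 had 2 and 2 had 3.

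The Cnot3KO group comprised 2 livers of mice in which Cre recombinase under the albumin promoter (Alb-Cre) deletes a floxed Cnot3 allele, and the Control group 2 livers labelled as wild type. All 4 mice were C57BL/6, were kept under SPF conditions and were 4 weeks old. The methods of the study list mice of several genotypes as controls, and which of them gave these 2 livers is not given in the sources used here. The albumin promoter is active in hepatocytes and in hepatoblasts, which give rise to hepatocytes and cholangiocytes. Liver cells of the Cnot3KO mice that do not come from hepatoblasts keep the gene. Whether cholangiocytes keep it was not tested here. Total RNA of each whole liver was hybridised to 1 Affymetrix mouse expression array, and each value below is the log2 of a probe set intensity made by Robust Multi-array Average (RMA). A value can be compared between arrays for 1 probe set, and not between probe sets. Precision is limited by the number of arrays.

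Chemokines are small secreted proteins that attract leukocytes along a gradient, and they signal through G protein-coupled receptors on the responding cell. The CC and CXC classes are named for the spacing of their first cysteines. In liver they are made by hepatocytes, Kupffer cells, endothelial cells, cholangiocytes and stellate cells as well as by leukocytes, and inflammatory members are induced by interferons through STAT and IRF factors or by Tnf, interleukin 1 and toll-like receptors through NF-kappa-B. Many mRNAs of inflammatory chemokines carry AU-rich elements and are short-lived, and the CCR4-NOT complex, of which Cnot3 is a subunit, removes the poly(A) tails of mRNAs.

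Cnot3 itself had log2 intensities of 5.15 and 5.30 in Cnot3KO livers and of 5.99 and 6.04 in Control livers, a log2 difference of -0.79 ± 0.16 (SE, n = 2 each, limma adjusted p = 0.0372). Its other probe set had a difference of -0.40 (adjusted p = 0.218). Whether either probe set lies in the deleted part of the gene is not given in the sources used here, so these values are a weak check of the labels. Alb, the hepatocyte marker, was at 13.74 and 13.79 in Cnot3KO livers and at 13.84 and 13.73 in Control livers. Array medians were between 3.09 and 3.14, and the arrays correlated at 0.981 to 0.989 within a group and at 0.937 to 0.948 between groups.

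Of the 10 ligands, 4 rose in Cnot3KO livers: Ccl5, Ccl6, Cxcl14 and Cxcl16 (limma, adjusted p under 0.05 over all 38405 probe sets kept). None fell, and 6 were not called. Among all 16758 genes tested, 12.2% were called higher and 4.64% were called lower. Without adjustment, 6 ligands passed p under 0.05 upwards and 1 downwards, against 3842 and 2079 of all 16758 genes. The log2 differences ran from -0.62 for Cxcl12 to 3.12 for Cxcl14, with a median of 1.07, where the median of all genes tested was 0.00. In 6 ligands both Cnot3KO arrays lay above both Control arrays, and in 1 both lay below them, against 34.8% and 30.3% of all genes. These gene values use the probe set with the highest mean signal. Over all 19 probe sets, 6 were called higher and 1 lower, where 8.48% and 4.78% of all kept probe sets were called. The count of ligands called higher was 0 without Control replicate 1, 2 without Cnot3KO replicate 2 and 2 without Control replicate 2.

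**Figure D1:**
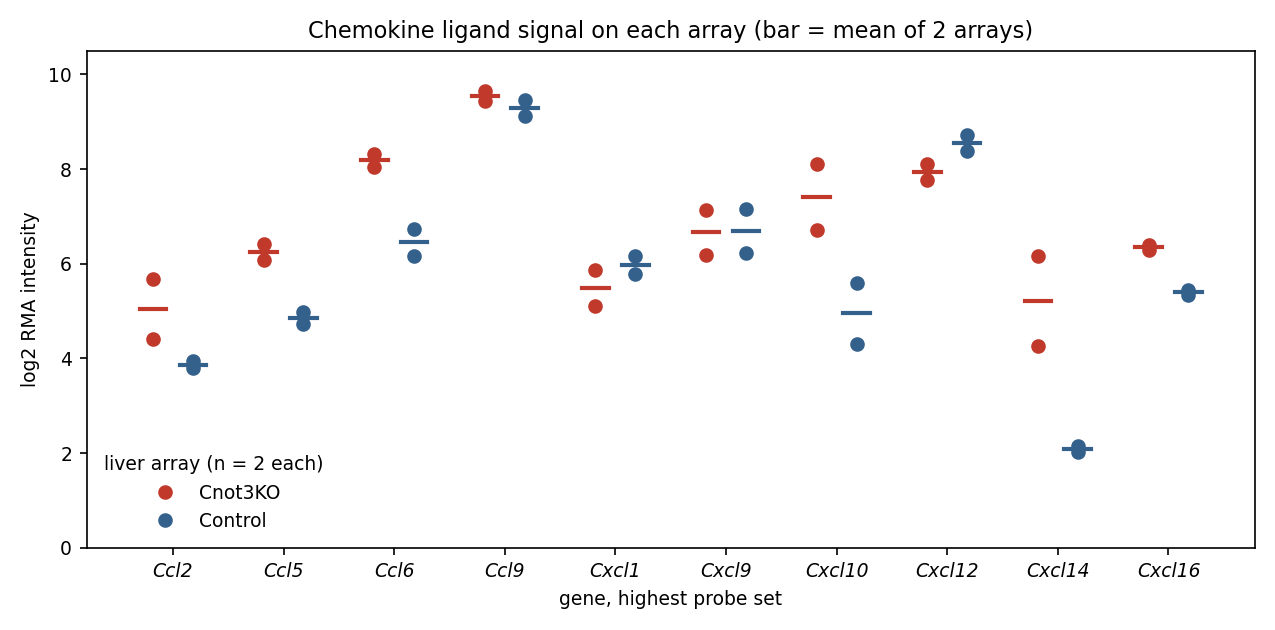
The log2 RMA intensity of each of the 10 ligands (vertical axis, linear in log2 units) is plotted for 2 Cnot3KO livers (red, left of each pair) and 2 Control livers (blue, right), with a bar at the mean of each group. Ccl5, Ccl6, Cxcl14 and Cxcl16 are separated by more than the gap within either group, whereas the points of Cxcl9 and Ccl9 overlap.

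The CC ligands Ccl5, Ccl6 and Ccl9 lie next to each other on chromosome 11 in the RefSeq annotation of GRCm38.p6, and they differed in their values. Ccl5 (RANTES), which attracts T cells, NK cells and monocytes, was at 6.07 and 6.42 in Cnot3KO livers, against 4.74 and 4.99 in Control livers. Its log2 difference was 1.39 ± 0.20 (SE, n = 2 each, limma adjusted p = 0.0164), or 2.61-fold, and no Control array reached a Cnot3KO array. The call was lost without Cnot3KO replicate 2 (difference 1.21, limma adjusted p = 0.0621) and without Control replicate 1 (1.26, 0.0700).

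Ccl6, a myeloid chemokine of rodents that signals through Ccr1, was at 8.32 and 8.05 in Cnot3KO livers and at 6.16 and 6.74 in Control livers. The difference of 1.73 ± 0.25 (SE, n = 2 each, limma adjusted p = 0.0153), or 3.32-fold, was 3.02 times the larger gap within a group. The other probe set of Ccl6 gave the same direction, with 6.24 and 5.94 in Cnot3KO livers and 4.74 and 4.70 in Control livers (1.37 ± 0.18, SE, n = 2 each, limma adjusted p = 0.0132). For the first probe set the call was lost without Cnot3KO replicate 1 (difference 1.60, limma adjusted p = 0.0558) and without Control replicate 1 (1.45, 0.0518).

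Ccl9, the neighbour of Ccl6 and another ligand of Ccr1 known from rodents, was at 9.44 and 9.65 in Cnot3KO livers and at 9.12 and 9.46 in Control livers. Its groups overlapped, and its difference of 0.25 ± 0.20 (SE, n = 2 each) did not pass the test (limma adjusted p = 0.428). The second probe set overlapped as well (0.40 ± 0.33, SE, n = 2 each, limma adjusted p = 0.450). The 95% intervals from limma were -0.24 to 0.75 for the first Ccl9 probe set and 1.11 to 2.36 for the first Ccl6 probe set. The difference between these genes was not tested.

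The promoters of Ccl6 and Ccl9 are printed to show how far these neighbours share sequence around their start sites. Each is a window from 250 bases before to 50 bases after the annotated start, from RefSeq on GRCm38.p6, written 5′ to 3′ on the strand of the gene. The capitals mark the stretch that aligned best between both windows. Ccl6 is chr11:83593038-83593337 on the minus strand and Ccl9 is chr11:83578587-83578886 on the minus strand.
Ccl6: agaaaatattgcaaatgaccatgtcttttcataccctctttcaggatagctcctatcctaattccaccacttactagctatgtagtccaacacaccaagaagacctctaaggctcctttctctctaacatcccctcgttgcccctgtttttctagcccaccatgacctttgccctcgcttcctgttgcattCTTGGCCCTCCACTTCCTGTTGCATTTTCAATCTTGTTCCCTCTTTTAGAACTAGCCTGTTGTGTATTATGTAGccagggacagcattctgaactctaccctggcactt
Ccl9: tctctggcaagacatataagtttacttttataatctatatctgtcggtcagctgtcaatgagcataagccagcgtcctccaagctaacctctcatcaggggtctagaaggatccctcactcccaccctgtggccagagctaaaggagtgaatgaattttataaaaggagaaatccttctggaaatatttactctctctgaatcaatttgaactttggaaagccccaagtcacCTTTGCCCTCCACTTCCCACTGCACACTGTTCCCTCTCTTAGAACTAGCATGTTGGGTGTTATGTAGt
The stretch began 59 bases before the start of Ccl6 and 18 bases before that of Ccl9, and 59 of its 74 aligned positions were identical (79.7%). The score of this local alignment was 71, and the next highest among all pairs of the 7 promoters found for the 10 genes was 29, for Cxcl10 and Cxcl9. Of this pair, with the highest score among the 7 promoters, Ccl6 was called and Ccl9 was not. Whether the shared stretch bears on their values was not tested.

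Ccl2 (MCP-1), the main attractant of Ccr2-bearing monocytes, was at 4.42 and 5.68 in Cnot3KO livers and at 3.80 and 3.94 in Control livers. Both Cnot3KO arrays were above both Control arrays, but they differed from each other by 1.26, more than the group difference of 1.18 ± 0.42 (SE, n = 2 each, limma adjusted p = 0.127). Without Cnot3KO replicate 1 the difference was 1.81, and without Cnot3KO replicate 2 it was 0.55. Ccl7, the gene next to Ccl2 and a ligand of the same receptor, had a difference of 0.75 that did not pass the test (adjusted p = 0.121).

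Of the CXC ligands, Cxcl10 and Cxcl9 are both induced by interferon gamma, and neither was called. Cxcl10 (IP-10), a ligand of Cxcr3 on activated T and NK cells, was at 6.71 and 8.10 in Cnot3KO livers and at 4.31 and 5.60 in Control livers. Both Cnot3KO arrays were above both Control arrays, while arrays of 1 group lay 1.39 apart in Cnot3KO livers and 1.29 apart in Control livers. The difference of 2.45 ± 0.60 (SE, n = 2 each), or 5.46-fold, missed the threshold (limma adjusted p = 0.0559). The difference was 3.15 without Cnot3KO replicate 1, 1.75 without Cnot3KO replicate 2 and 1.80 without Control replicate 1. With only the probe sets whose mean was above the 50th percentile it was called (limma adjusted p = 0.0471). With quantile normalization applied again it was 2.31 and was not called (limma adjusted p = 0.0690).

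Cxcl9 (MIG), which binds the same receptor and lies near Cxcl10 with Art3 between them, was at 6.19 and 7.14 in Cnot3KO livers and at 6.22 and 7.16 in Control livers. The groups overlapped almost completely, with a difference of -0.03 ± 0.44 (SE, n = 2 each, limma adjusted p = 0.974), and the 95% interval of -1.12 to 1.07 still holds changes of about 2-fold either way. Its sign was not settled: it was 0.01 with each array centred on its median and 0.45 without Cnot3KO replicate 1. The second Cxcl9 probe set was at 3.55 and 4.16 in Cnot3KO livers and at 4.04 and 4.45 in Control livers (-0.39 ± 0.27, SE, n = 2 each, limma adjusted p = 0.379). Cxcl11, the other ligand of Cxcr3, was at 2.71 and 3.37 in Cnot3KO livers and at 3.56 and 4.13 in Control livers (-0.80, adjusted p = 0.151). Of the 3 ligands of Cxcr3, none was called, and Cxcl10 was the only 1 with a positive difference on its highest probe set.

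The promoters of Cxcl10 and Cxcl9 are printed because these near neighbours are induced by the same cytokine. The 95% intervals of their differences, 0.94 to 3.95 for Cxcl10 and -1.12 to 1.07 for Cxcl9, overlapped, and whether the genes differ from each other was not tested. Windows, source and build are as above, and capitals here mark matches to 3 motifs searched on both strands: the core of the interferon-stimulated response element (GAAANNGAA), the gamma-activated sequence bound by STAT factors (TTCNNNGAA) and the NF-kappa-B consensus. Cxcl10 is chr5:92348840-92349139 and Cxcl9 is chr5:92328030-92328329, both on the minus strand.
Cxcl10: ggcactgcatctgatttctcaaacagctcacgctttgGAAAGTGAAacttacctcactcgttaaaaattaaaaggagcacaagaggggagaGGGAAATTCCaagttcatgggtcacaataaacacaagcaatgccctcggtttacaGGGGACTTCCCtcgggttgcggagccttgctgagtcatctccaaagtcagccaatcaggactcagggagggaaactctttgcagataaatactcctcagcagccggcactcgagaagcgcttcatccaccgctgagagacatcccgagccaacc
Cxcl9: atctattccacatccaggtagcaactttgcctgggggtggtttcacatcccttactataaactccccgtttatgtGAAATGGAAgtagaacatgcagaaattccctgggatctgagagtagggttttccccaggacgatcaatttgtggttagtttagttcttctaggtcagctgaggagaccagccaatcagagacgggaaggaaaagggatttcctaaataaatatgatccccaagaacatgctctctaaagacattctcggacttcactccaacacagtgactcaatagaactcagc
The Cxcl10 window held GAAAGTGAA 213 bases before the start and NF-kappa-B matches in 2 stretches, 159 and 104 bases before the start. The stretch at 104 bases holds 2 overlapping matches, and the consensus can match on both strands at the same place. The Cxcl9 window held GAAATGGAA 175 bases before the start and no match to the NF-kappa-B consensus. Of the 32851 promoter windows of the same length, 8.56% held GAAANNGAA, 8.3% held TTCNNNGAA and 8.46% held the NF-kappa-B consensus. A match is a run of letters and not a measured site.

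Cxcl1 (KC), a neutrophil attractant that signals through Cxcr2 and is a classic NF-kappa-B target, did not pass the test on any of 3 probe sets. Its highest probe set was at 5.11 and 5.86 in Cnot3KO livers and at 6.17 and 5.78 in Control livers (-0.49 ± 0.30, SE, n = 2 each, limma adjusted p = 0.328). The others had differences of -0.58 ± 0.40 and -0.22 ± 0.19 (SE, n = 2 each, limma adjusted p = 0.376 and 0.467). Cnot3KO replicate 1 was the lowest of the 4 arrays on all 3 probe sets. Cxcl2, its neighbour and near relative, had a difference of -0.14. The Cxcl1 window, chr5:90890995-90891294 on the plus strand, is printed with its NF-kappa-B match in capitals.
Cxcl1: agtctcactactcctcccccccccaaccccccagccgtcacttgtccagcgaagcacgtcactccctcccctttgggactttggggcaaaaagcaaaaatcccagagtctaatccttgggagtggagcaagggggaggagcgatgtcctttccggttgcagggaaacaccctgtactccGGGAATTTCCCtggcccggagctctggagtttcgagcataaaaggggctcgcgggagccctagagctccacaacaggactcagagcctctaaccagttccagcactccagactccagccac
The match lay 71 bases before the start and was read on both strands, shifted by 1 base.

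Cxcl14 (BRAK), a ligand of epithelia and stroma whose receptor is not settled, had the largest difference of the 10 on the highest probe sets, though not where the probe sets of a gene were averaged. Its highest probe set was at 6.16 and 4.26 in Cnot3KO livers and at 2.02 and 2.16 in Control livers. Both Cnot3KO arrays were far above both Control arrays, and they were also 1.90 apart. The difference was 3.12 ± 0.60 (SE, n = 2 each, limma adjusted p = 0.0308). The Control arrays were low on this probe set, under the array medians of 3.11 and 3.14 and not far above the 20th percentiles of 1.64 and 1.69, so that no fold is given. The call was lost without Control replicate 1 (limma adjusted p = 0.125) and without Control replicate 2 (0.101), with differences of 3.05 and 3.19. Leaving out a Cnot3KO replicate moved the difference to between 2.17 and 4.07.

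The second Cxcl14 probe set did not show this change, with 3.42 and 3.16 in Cnot3KO livers and 3.17 and 3.16 in Control livers (0.13 ± 0.18, SE, n = 2 each, limma adjusted p = 0.662). With the mean of both probe sets as the value of the gene, the difference was 1.62 (limma adjusted p = 0.0376), below the 2.45 of Cxcl10. Which transcripts each probe set reads was not analysed here. The Cxcl14 window, chr13:56296502-56296801 on the minus strand, held 2 of the motifs.
Cxcl14: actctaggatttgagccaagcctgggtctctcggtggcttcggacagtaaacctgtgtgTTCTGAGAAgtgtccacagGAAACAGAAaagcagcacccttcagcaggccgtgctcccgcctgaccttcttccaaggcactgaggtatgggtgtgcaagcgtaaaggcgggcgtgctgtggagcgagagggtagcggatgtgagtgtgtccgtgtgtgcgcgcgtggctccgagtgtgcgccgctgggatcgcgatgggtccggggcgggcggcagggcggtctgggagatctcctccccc
The capitals mark TTCTGAGAA, a match to TTCNNNGAA 191 bases before the start, and GAAACAGAA, a match to GAAANNGAA 172 bases before the start. The windows of Ccl6 and Cxcl12 held no match to any of the 3 motifs, and that of Ccl9 held an NF-kappa-B match, GGAAAGCCCC as read on the strand of the gene, 35 bases before the start. No window was found for Ccl2, Ccl5 and Cxcl16, so that the called ligands Ccl5 and Cxcl16 were not searched. Whether a match goes with a difference was not tested.

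**Figure D2:**
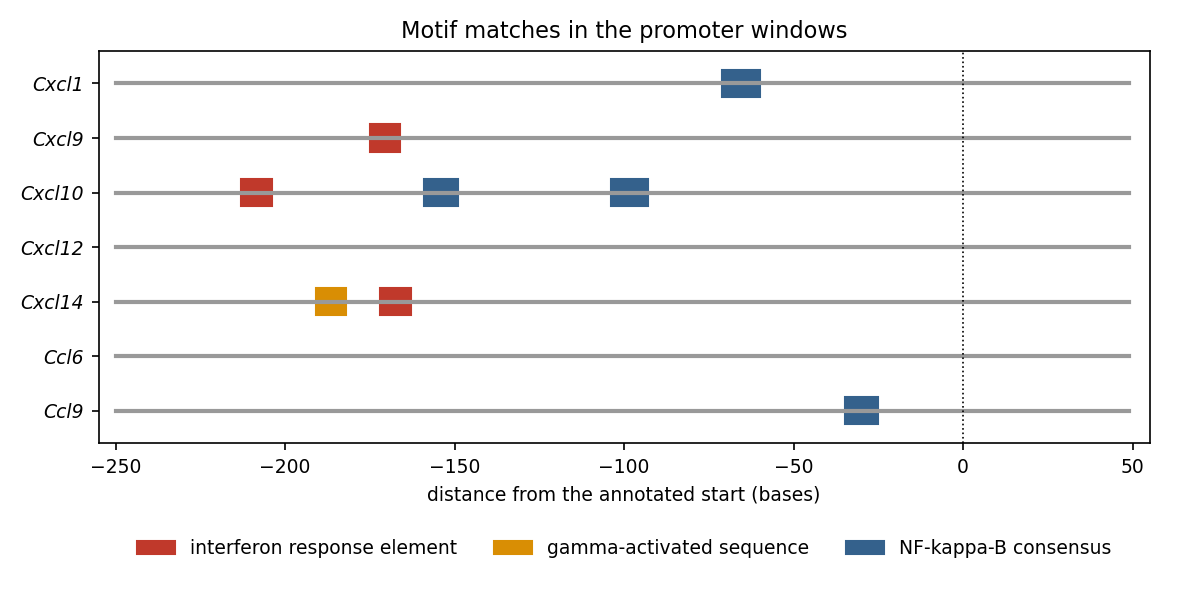
Boxes mark matches to the interferon response element (red), the gamma-activated sequence (orange) and the NF-kappa-B consensus (blue) in the promoter windows of 7 ligand genes, with the distance from the annotated start in bases on the horizontal axis (dotted line at the start). Cxcl10 holds 3 boxes, Cxcl14 holds 2, and Cxcl12 and Ccl6 hold none.

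Cxcl16, a membrane-bound chemokine that is shed by Adam10 and that also acts as a scavenger receptor, was at 6.30 and 6.40 in Cnot3KO livers and at 5.35 and 5.44 in Control livers. Its replicates were the closest of all the ligands, so that the difference of 0.95 ± 0.16 (SE, n = 2 each, limma adjusted p = 0.0225), or 1.94-fold, was 9.41 times the larger gap within a group. The second probe set was at 6.36 and 6.18 in Cnot3KO livers and at 4.36 and 4.93 in Control livers (1.62 ± 0.24, SE, n = 2 each, limma adjusted p = 0.0163). With any 1 array left out, the difference of the first probe set stayed between 0.90 and 1.00 and the call was lost (limma adjusted p between 0.0547 and 0.117). Adam10 was not called (0.32, adjusted p = 0.372).

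Cxcl12 (SDF-1), the homeostatic ligand of Cxcr4 made by stromal and endothelial cells, was the 1 ligand with both Cnot3KO arrays below both Control arrays on every probe set. Its highest probe set was at 8.10 and 7.77 in Cnot3KO livers and at 8.72 and 8.38 in Control livers, without overlap, and did not pass the test (-0.62 ± 0.21, SE, n = 2 each, limma adjusted p = 0.121). The second was at 7.35 and 7.63 in Cnot3KO livers and at 9.35 and 8.53 in Control livers, and it fell by 1.45 on the log2 scale (SE 0.31, n = 2 each, limma adjusted p = 0.0386). The third was near the bottom of the signal range, with 1.84 and 1.70 in Cnot3KO livers and 1.96 and 2.22 in Control livers (-0.32, adjusted p = 0.286). With the mean of the 3 probe sets as the value of the gene, Cxcl12 was called lower (-0.80, limma adjusted p = 0.0333).

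**Figure D3:**
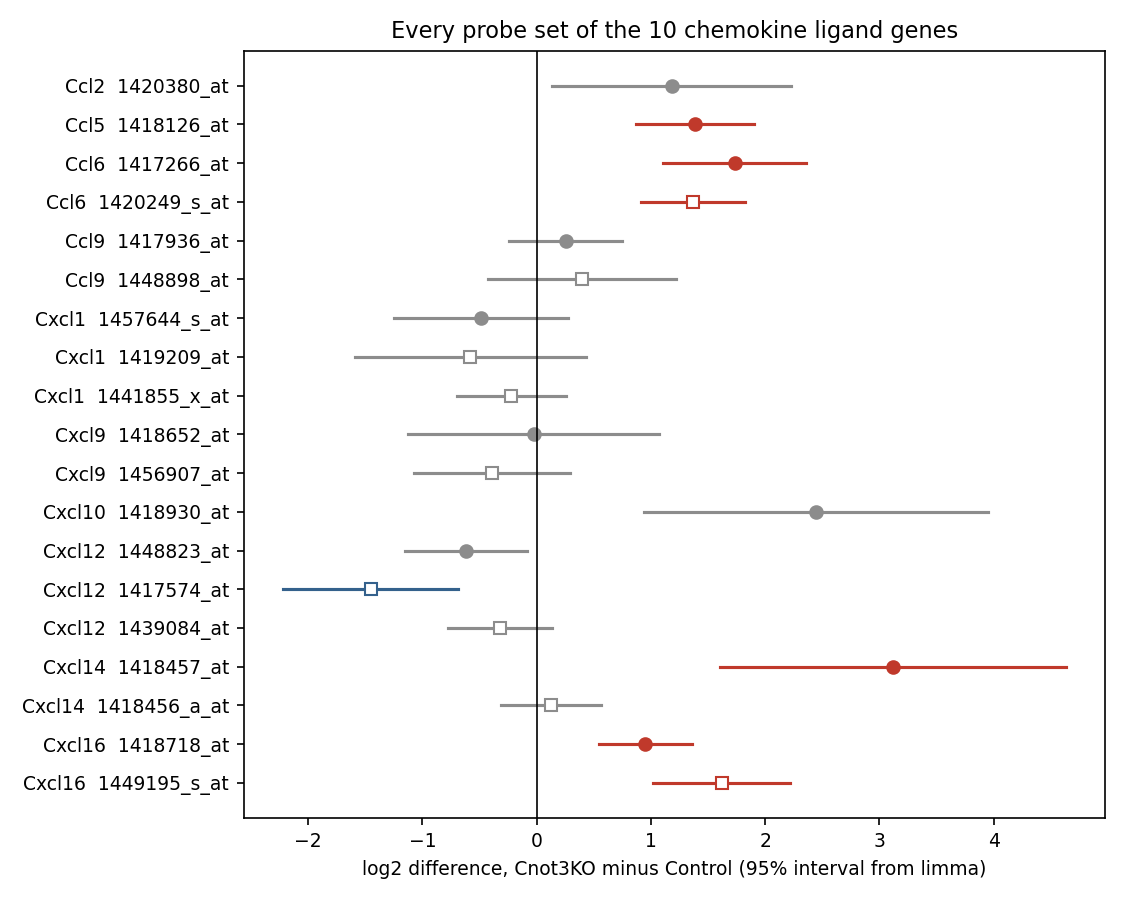
Points give the log2 difference, Cnot3KO minus Control, of all 19 probe sets and lines the 95% interval from limma (horizontal axis), with filled circles for the highest probe set of a gene and open squares for the others. Red marks the 6 probe sets called higher, blue the 1 called lower (the second Cxcl12 probe set) and grey the 12 not called; the 2 Cxcl14 probe sets differ most.

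The other ligands of the family are given for comparison. Of 25 further chemokine ligands named alone on the array, 24 passed the filter and none was called either way by limma. Without adjustment, 5 of them passed p under 0.05 upwards and 3 downwards. These shares were close to those among all 16758 genes tested, of which 3842 passed upwards and 2079 downwards. Their differences ran from -0.82 for Ccl27a, a skin chemokine, to 0.75 for Ccl7, with a median of -0.05.

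On the receiving side, 2 of 16 chemokine receptors tested rose (12.5%, against 12.2% of all genes) and none fell, with a median difference of 0.07. Cxcr4, the receptor of Cxcl12, was at 3.74 and 3.70 in Cnot3KO livers and at 2.37 and 2.19 in Control livers (1.44 ± 0.17, SE, n = 2 each, limma adjusted p = 0.00973). Ccr9, the receptor of Ccl25, was at 3.54 and 3.53 in Cnot3KO livers and at 2.25 and 1.92 in Control livers on its highest probe set (1.45 ± 0.19, SE, n = 2 each, limma adjusted p = 0.0121). The other 4 Ccr9 probe sets were not called, and 3 of them had negative differences, of -0.69, -0.09 and -0.05. The receptor and its ligand thus had opposite signs for Cxcr4 and Cxcl12, while Ccl25 had a difference of -0.10.

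The receptors of the other ligands were not called on their highest probe sets. For Ccr2, the receptor of Ccl2, the probe sets disagreed. The highest was at 4.13 and 4.17 in Cnot3KO livers and at 4.09 and 4.22 in Control livers, with overlap. A second was at 3.59 and 3.38 in Cnot3KO livers and at 2.27 and 2.24 in Control livers, and one more at 2.79 and 3.15 in Cnot3KO livers and at 1.96 and 1.78 in Control livers. Both of these were called higher (1.23 and 1.10, limma adjusted p = 0.0139 and 0.0264). Cxcr3, the receptor of Cxcl9 and Cxcl10, was at 3.35 and 3.79 in Cnot3KO livers and at 3.40 and 3.66 in Control livers, and its groups overlapped. Ccr1, the receptor of Ccl5, Ccl6 and Ccl9, had a difference of 0.63 (adjusted p = 0.133), Cxcr6, the receptor of Cxcl16, of 0.54 (0.0916), and Cxcr2, the receptor of Cxcl1, of -0.24 (0.492). Among 5 atypical receptors, which bind chemokines without G protein signalling, 1 rose (20%, against 12.2% of all genes) and none fell, with a median of -0.02. This was Ccrl2, with 5.65 and 5.50 in Cnot3KO livers and 3.38 and 4.01 in Control livers (1.88 ± 0.25, SE, n = 2 each, limma adjusted p = 0.0133). Ackr3, the scavenger of Cxcl12, was at 3.85 and 2.69 in Cnot3KO livers and at 2.12 and 1.64 in Control livers and was not called (1.39, adjusted p = 0.0890).

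Of 14 genes of the interferon pathway that induces chemokines, 4 rose (28.6%, against 12.2% of all genes) and none fell, with a median difference of 0.59. Irf7, a factor of the type I interferon response, was at 8.63 and 8.34 in Cnot3KO livers and at 6.62 and 6.59 in Control livers (1.88 ± 0.18, SE, n = 2 each, limma adjusted p = 0.00716). Irf8, Irf1 and the receptor chain Ifngr1 rose by 1.29, 1.28 and 0.92. Ifng, the cytokine itself, was near the bottom of the signal range, with 1.31 and 1.64 in Cnot3KO livers and 1.18 and 1.27 in Control livers (0.25, adjusted p = 0.409).

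Of 20 genes of the NF-kappa-B pathway, 4 rose (20%, against 12.2% of all genes) and none fell, with a median of 0.32. Cd14, the co-receptor for lipopolysaccharide, was at 8.31 and 7.46 in Cnot3KO livers and at 4.14 and 4.80 in Control livers (3.42 ± 0.36, SE, n = 2 each, limma adjusted p = 0.00859). Tlr2 rose by 1.92, and the inhibitors Tnfaip3 and Nfkbie rose by 1.57 and 1.30. The inhibitors Nfkbia (-0.65, lower without overlap) and Nfkbib (0.98) were not called (limma adjusted p = 0.108 and 0.0815). The cytokines Tnf and Il1b were not called (0.03 and 0.31, adjusted p = 0.936 and 0.494).

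Of 10 factors that bind cytokine mRNAs and set their decay, none rose and 1 fell (10%, against 4.64% of all genes called lower). This was Zfp36 (tristetraprolin), which binds AU-rich elements and recruits the CCR4-NOT complex, at 6.78 and 7.52 in Cnot3KO livers and at 8.38 and 8.53 in Control livers (-1.31 ± 0.28, SE, n = 2 each, limma adjusted p = 0.0398). The median of these factors was -0.03. Of 12 proteases and proteoglycans that cut or hold chemokines, 1 rose (8.33%, against 12.2% of all genes) and 1 fell (8.33%, against 4.64%). Their median difference was -0.04. Mmp12, the macrophage elastase, rose by 4.22 ± 0.36 (SE, n = 2 each, limma adjusted p = 0.00569), with 6.67 and 5.64 in Cnot3KO livers and 1.83 and 2.06, near the 20th percentile, in Control livers. Sdc4, a heparan sulphate proteoglycan of the cell surface, fell by 1.42 (SE 0.16, adjusted p = 0.00918). Dpp4, which trims Cxcl10, Cxcl12 and Ccl5, was not called on its highest probe set (-0.41, adjusted p = 0.219), but another fell, with 4.11 and 4.37 in Cnot3KO livers and 5.76 and 6.08 in Control livers (-1.68, limma adjusted p = 0.0105). All 4 Dpp4 probe sets had negative differences.

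**Figure D4:**
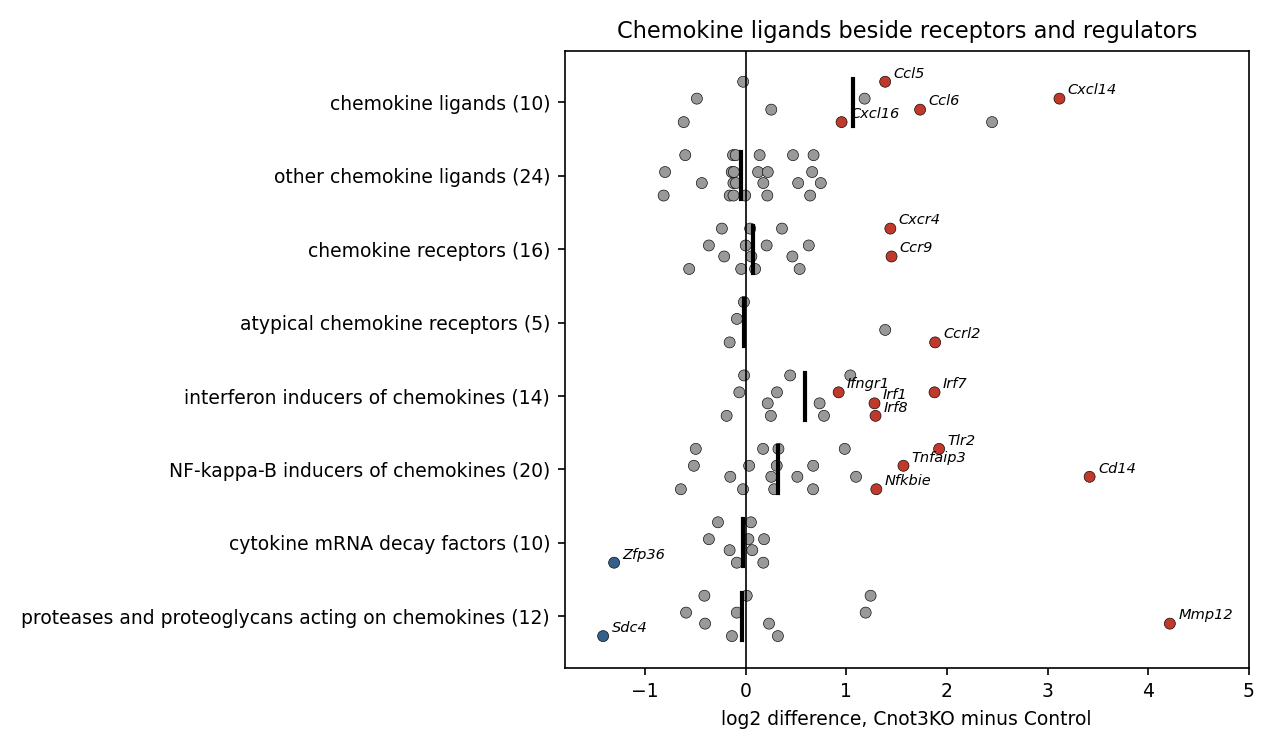
Each point is a gene and its place on the horizontal axis is its log2 difference, Cnot3KO minus Control, by list (the number tested in brackets); red points were called higher, blue lower and grey neither, and black bars are medians. The median of the 10 ligands is 1.07, and that of the 24 other ligands, several of which had signals under the array medians, is -0.05.

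Markers of several non-parenchymal cells moved on the same arrays. In whole tissue, fewer cells of a type and less RNA per cell cannot be told apart. Of all genes tested, 12.2% were called higher and 4.64% lower, and in lists this short 1 gene moves a share far. Macrophage and Kupffer cell markers rose in 5 of 11 cases (45.5%) and fell in none, with a median of 1.08. Their summed linear intensity was 4776 and 5463 in Cnot3KO livers and 2817 and 2572 in Control livers. Adgre1 was at 6.51 and 7.37 in Cnot3KO livers and at 5.86 and 6.41 in Control livers (0.80, adjusted p = 0.190), and the largest change was that of Cd68 (2.34, limma adjusted p = 0.00727). Of 4 monocyte markers 3 rose (75%: Plac8 by 2.37, Chil3 by 1.71 and S100a4 by 1.63), and F13a1 was not called (-0.03). Chil3 was at 1.34 in Control replicate 1, under the 20th percentile of that array (1.64). The monocyte sums were 660 and 522 in Cnot3KO livers and 132 and 113 in Control livers. Plac8 made the largest part of the sum on every array, so that the sum says little of the others. Of 7 neutrophil markers 2 rose (28.6%: Ltf by 2.00 and S100a8 by 1.35). The others were not called: S100a9 (0.98), Camp (0.22), Csf3r (0.13), Elane (0.11) and Mpo (-0.17, without overlap). The neutrophil sums were 198 and 137 in Cnot3KO livers and 90.2 and 88.5 in Control livers, and S100a8 and S100a9 made their largest parts. What part any of these cells had in the ligand values was not tested.

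Of 9 stellate cell markers 4 rose (44.4%, against 12.2% of all genes: Col1a1 by 1.90, Col3a1 by 1.73, Acta2 by 1.57 and Pdgfrb by 0.96). Of 5 cholangiocyte markers 3 rose (60%: Epcam by 3.69, Sox9 by 2.79 and Krt19 by 1.45). Of 4 dendritic cell markers 1 rose (25%: Itgax by 1.43). The others were not called: Flt3 (0.29) and Siglech (0.12) overlapped between groups, and Zbtb46 was lower without overlap (-0.41). The cholangiocyte sum was 312 and 169 in Cnot3KO livers and 34.8 and 39.0 in Control livers. Cnot3KO replicate 1, the higher of the pair, was also the higher in Cxcl14. The sums of stellate, monocyte, neutrophil, dendritic, endothelial and hepatocyte markers were likewise higher in Cnot3KO replicate 1 than in replicate 2. Those of macrophage, T and NK cell and B cell markers were lower in it. Whether any of these cells bears on Cxcl14 was not tested. None of 9 endothelial, 3 B cell and 13 T and NK cell markers was called by limma. Without adjustment, 3 T and NK cell markers passed p under 0.05 upwards (Gzmb, 1.25, Gzma, 0.80, and Nkg7, 0.77). Another 2 passed it downwards (Zap70, -0.76, and Cd4, -0.48), and no endothelial or B cell marker did. Of all 16758 genes, 3842 passed it upwards and 2079 downwards. Cd3e, which marks T cells, was at 3.86 and 3.84 in Cnot3KO livers and at 3.92 and 4.16 in Control livers. The T and NK cell sum was 184 and 223 in Cnot3KO livers and 214 and 224 in Control livers. Zap70, with a negative difference, made the largest part of this sum, so that the sum says little of Gzmb, Gzma and Nkg7. Of 8 hepatocyte markers 1 was called lower (12.5%, against 4.64% of all genes). This was Apob, which fell by 1.13 (limma adjusted p = 0.0278), and the others were not called.

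**Figure D5:**
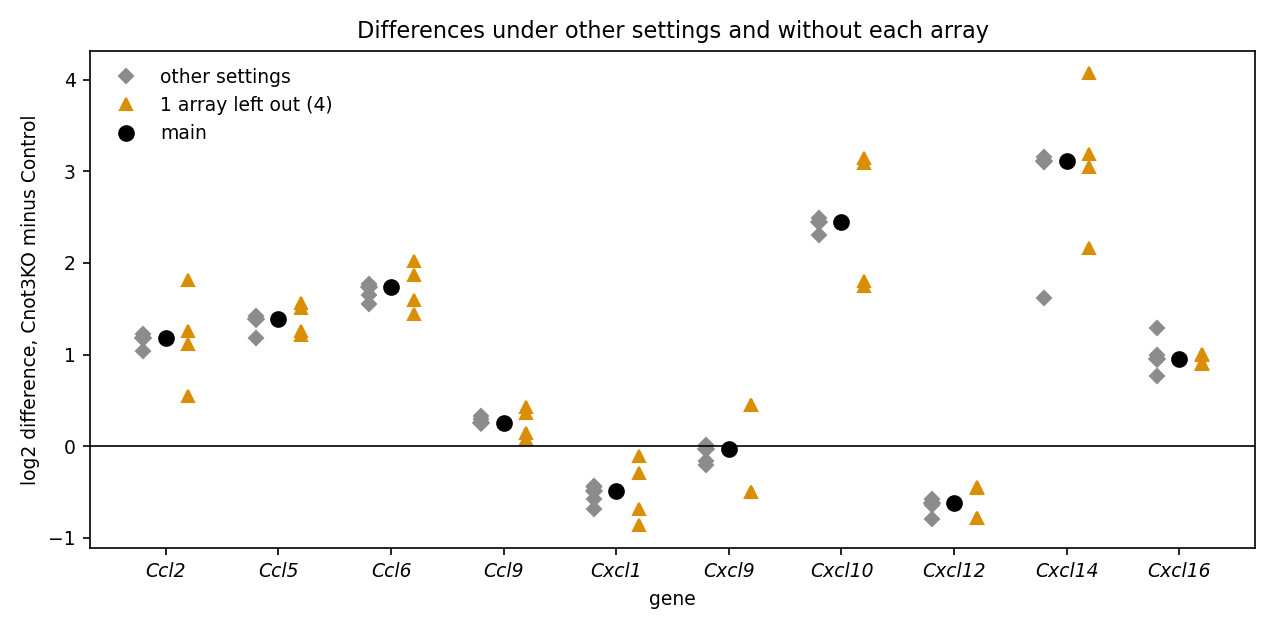
The log2 difference, Cnot3KO minus Control, of each ligand (vertical axis) is given as reported (black), under the other settings (grey) and with 1 array left out (orange). The sign changes only for Cxcl9, and Cxcl14 and Cxcl10 spread most when an array is left out, between 2.17 and 4.07 and between 1.75 and 3.15.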

How the data were processed

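Total RNA of 4 livers was hybridised to Affymetrix GeneChip mouse genome arrays, 1 array per liver. The authors deposited linear probe set intensities from the RMA algorithm (background correction, normalization between arrays and a summary over the probes). The version, and which arrays were normalized together, are not given in the sources used here. The deposited intensity values were turned to log2 with no added constant.

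Of 45037 probe sets, 38405 (85.3%) lay above the 20th percentile of their array on at least 1 of 4 arrays and were kept. limma 3.58.1 in R 4.3.3 (lmFit and eBayes, 2-sided, no covariate) compared Cnot3KO with Control over all kept probe sets with Benjamini-Hochberg adjustment, and a probe set was called at an adjusted p under 0.05. The fit was tested on simulated data. A gene is represented by the kept probe set that names it alone and has the highest mean, and SE is the standard error of the log2 difference. The labels name separate mice. With 2 arrays against 2, an exact permutation test could not give a 2-sided p below 0.333, so none was run. Gene names are those of the platform annotation, in which 34945 probe sets name 1 gene, 932 several and 9160 none.

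All 10 ligands, Cnot3 and, from each of the other 17 lists, up to 4 genes called each way with the largest differences (the 2 largest where none was called) were named by rule, with Cd3e, S100a8 and Adgre1. Alb, Ifng, Tnf, Il1b, Adam10, Dpp4, Ackr3, Cxcl2, Ccl7, Ccl25, Nkg7, Zap70, Cd4 and the receptors of the ligands were added once their values had been seen. So were Nfkbia, Nfkbib and the monocyte, neutrophil and dendritic cell markers that were not called. The ligands and lists were chosen with earlier results of these data known. Promoter windows came from the RefSeq table of GRCm38.p6, which held 7 of the 10 genes, and were aligned with Biopython 1.88 (match 2, mismatch -3, gap opening -5 and extension -2). Alternatives were 12 other settings and each array left out in turn. No protein sequence was used here.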

Additional observations from a re-analysis of the deposited data

How the results depend on the processing

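Over 16 alternatives, the direction of 9 of the 10 ligands did not change. Cxcl9, at -0.03, was at 0.0125 with each array centred on its median and ran from -0.50 to 0.45 with 1 array left out. The number of ligands called higher was 0 with the methods' t-test after adjustment and 0 to 4 with 1 array left out. The number called lower was 1 where the probe sets of a gene were averaged. Of all probe sets, 3258 were called higher and 1837 lower. The methods' t-test gave 0 higher and 1 lower after adjustment, and 3860 higher and 3977 lower at its unadjusted p under 0.05, where the excess of higher over lower counts was not seen. The counts were 4967 higher and 3551 lower at an adjusted p under 0.10, and 1194 to 1973 higher and 508 to 1394 lower with 1 array left out. Leaving out an array leaves 1 array in its group, whose spread is then assumed to be that of the other group. With 2 arrays a group, a difference that missed the threshold is not shown to be absent, and probe sets near the 20th percentile carry little signal over background.

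The labels give replicate numbers and do not say whether arrays of the same number belong together. The deviations of same-numbered arrays from their group means correlated at 0.23, and 2 pairs are too few to take the numbers as pairs. Array 2 was above array 1 by 0.95 in Cnot3KO and 0.94 in Control livers for Cxcl9, and by 1.39 and 1.29 for Cxcl10. For Ccl6, Cxcl1 and Cxcl14 the 2 groups shifted in opposite directions on the highest probe set. Whether the numbers mark a shared source was not tested. With the replicate number as a block, 2967 probe sets were called higher and 1716 lower, 5 ligands were called higher and 0 lower, and Cxcl10 was called (difference 2.45, limma adjusted p = 0.0165).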
